A study of Mus musculus with 16 samples.

Results

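The genes described here make, break down and control the polyamines. They are 10 mouse genes chosen by name, Odc1, Amd1, Srm, Sms, Oaz1, Oaz2, Azin1, Sat1, Smox and Dhps, out of 23410 gene symbols counted. Each of the 10 had a row in the count table, 8 passed the filter on low counts and were tested, and 2 (Amd1 and Oaz1) did not. The counts come from RNA sequencing of G1E-ER4 cells, an erythroid line from mouse embryonic stem cells without a working Gata1 gene. The line carries the erythroid transcription factor GATA1 fused to the ligand-binding domain of the estrogen receptor, and beta-estradiol lets the fusion protein enter the nucleus. All cells, the untreated ones included, carried the fusion and grew with stem cell factor and erythropoietin. The groups were 0, 12.5, 25, 50, 75, 100, 150 and 200 nM beta-estradiol, with 2 libraries at each of the 8 doses and 16 in all. The labels do not say whether the libraries of a dose came from separate cultures, so p-values measure only the spread between these libraries. No cells without the fusion protein were analysed, so what the hormone does and what GATA1 does cannot be told apart.

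Polyamines are small positively charged molecules that bind RNA and other nucleic acids and are needed by growing cells. Ornithine decarboxylase makes putrescine, and spermidine synthase and spermine synthase lengthen it with groups that come from decarboxylated S-adenosylmethionine. Antizymes, whose own translation needs a polyamine-stimulated ribosomal frameshift, bind ornithine decarboxylase and send it to the proteasome, and antizyme inhibitors take antizyme away from it. Breakdown starts with acetylation by spermidine/spermine acetyltransferase or with direct oxidation of spermine. Spermidine also gives the group that turns a lysine of the translation factor eIF5A into hypusine, a modification that erythroid cells need.

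Library totals ran from 9393156 to 15802510 counts. TMM scaling factors, which correct for the makeup of a library, ran from 0.843 to 1.10 and were lowest at 200 nM. Globin genes took up between 0.151% of all counts (both 0 nM libraries) and 5.89% (the higher 200 nM library), and the ribosomal RNA precursor Rn45s rose from at most 9.61% to at least 14.6%. Of 10 erythroid marker genes 8 were in the table and all 8 were higher at 200 nM, with a summed level of 1340 to 1430 CPM, the scaled share of a library's counts, at 0 nM and 25600 to 26100 CPM at 200 nM. Gata1 was 1 of the 8, at 710.5 ± 62.2 CPM at 0 nM and 1642 ± 45.9 CPM at 200 nM (SD, n = 2). Because the line lacks a working Gata1 gene and carries the GATA1 fusion, the Gata1 row cannot be read as a marker of the cells' own gene. Megakaryocyte markers summed to 18 to 18.8 CPM at 0 nM and 439 to 454 CPM at 200 nM, with 4 of 5 tested markers higher and Gp6 and Vwf at 0 counts everywhere. Itgb3 alone went from 7.76 ± 0.64 to 404 ± 11 CPM (SD, n = 2) and made up most of that sum, while Gp1ba was at 7.71 ± 0.33 and 8.05 ± 0.60 CPM. Granulocyte and macrophage markers stayed at or under 4.88 CPM, with 3 of 3 tested markers higher and Mpo and Lyz2 at 0. Mast cell markers stayed under 2 CPM. The part of these shifts in the results on polyamine genes was not tested.

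Sequences that bear on how the genes can be counted and on where they start are shown first. Amd1, which encodes the decarboxylase of S-adenosylmethionine (chromosome 10, 40287458 to 40302186, minus strand, GRCm38), has a near-identical copy, Amd2. The coding sequences of the longest coding transcripts of both genes (GENCODE release M21) differed at 1 of 1002 bases. Coding bases 751 to 840 are shown from 5′ to 3′, with the differing base in capitals.
Amd1: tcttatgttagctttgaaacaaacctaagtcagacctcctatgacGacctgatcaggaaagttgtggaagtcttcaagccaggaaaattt
Amd2: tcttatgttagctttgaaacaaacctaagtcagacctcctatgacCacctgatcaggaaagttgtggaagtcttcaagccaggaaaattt
Neither gene had a count in any of the 16 libraries. A count of 0 allows up to 3 counts, which is 0.175 to 0.351 CPM depending on the library. Of the 50-base windows of the Amd1 transcript, 87.6% also occurred in a transcript of another gene, and 86.1% occurred in Amd2. The sources used here do not say how the counting treated reads with several matches, so a count of 0 for Amd1 does not show that the gene is silent.

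Oaz1, the main antizyme gene of most cells (chromosome 10, 80826656 to 80829290, plus strand), had 19 counts over all 16 libraries, with 0 to 4 counts in a library and 0 in 5 libraries. Of its 50-base windows 52.2% also occurred in its pseudogene Oaz1-ps. No level and no change are given for Oaz1 or Amd1. The same measure was 42.2% for Odc1, shared with 16 other annotated genes, and 28.7% for Sms, shared with its pseudogene Sms-ps among others. It was 12% for Oaz2, at or under 7.3% for Srm, Azin1, Sat1 and Dhps, and 0% for Smox. The levels of Odc1 and Sms, and their changes from dose to dose, are therefore uncertain, and these shares do not measure by how much. The part of shared sequence in any level or change was not tested.

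**Figure D1:**
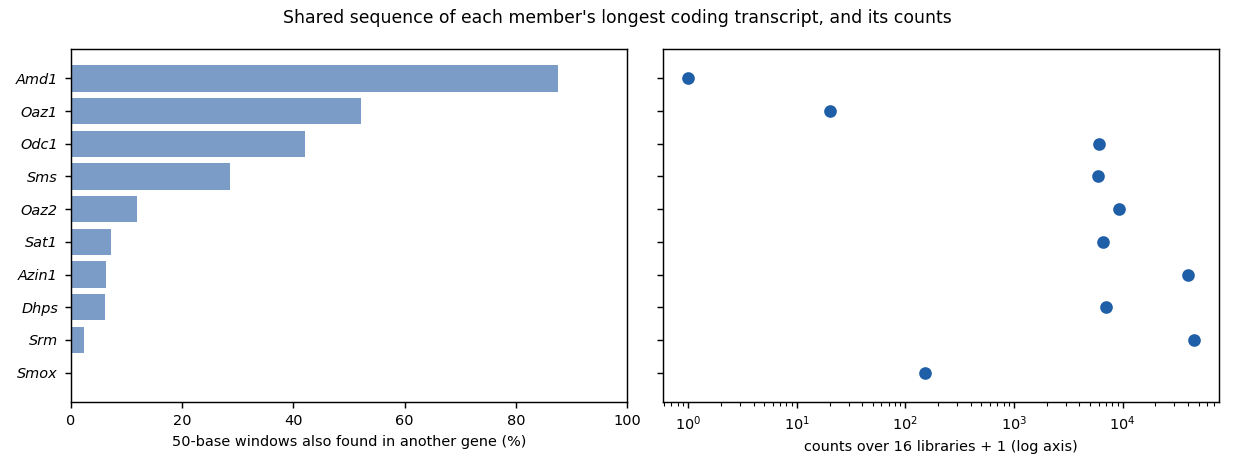
Left, share of 50-base windows in the longest coding transcript of each of the 10 genes that also occur in a transcript of another gene, in percent; right, counts of the gene summed over 16 libraries plus 1, on a log axis. Amd1 and Oaz1 have the highest shares, 87.6% and 52.2%, and the lowest counts, 0 and 19. Odc1, with a share of 42.2%, has 6065 counts, and Smox shares no window and has 150 counts.

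RefSeq windows of 250 bases before to 50 bases after a transcription start (build GRCm38.p6) were available for 8 of the 10 genes, with 2 windows for Sms and 9 in all. They were searched on both strands for CACGTG, the E-box bound by MYC and MAX, and for the GATA hexamers, AGATAA or AGATAG or TGATAA or TGATAG. No window of these genes held both kinds of motif. CACGTG was in 1 of the 9 windows, against 7.2% of 32851 windows of all genes. It was 1 of the 2 windows of Sms, and the other Sms window lacked it. A GATA hexamer was in 2 of the 9, those of Oaz2 and Smox, against 29.8% of all windows. These 3 windows are shown from 5′ to 3′ with the match in capitals, since they are the only ones of the 9 with a match. The window of Sat1, which rose more than Oaz2, held neither motif. They lie at chrX:157492238-157492537 (minus strand), chr9:65676298-65676597 (plus strand) and chr2:131491612-131491911 (plus strand).
Sms: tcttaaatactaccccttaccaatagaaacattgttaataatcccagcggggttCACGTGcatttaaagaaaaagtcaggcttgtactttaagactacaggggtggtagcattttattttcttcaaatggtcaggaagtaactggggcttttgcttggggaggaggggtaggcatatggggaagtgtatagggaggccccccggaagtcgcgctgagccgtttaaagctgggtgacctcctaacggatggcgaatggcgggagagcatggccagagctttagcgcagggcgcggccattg
Oaz2: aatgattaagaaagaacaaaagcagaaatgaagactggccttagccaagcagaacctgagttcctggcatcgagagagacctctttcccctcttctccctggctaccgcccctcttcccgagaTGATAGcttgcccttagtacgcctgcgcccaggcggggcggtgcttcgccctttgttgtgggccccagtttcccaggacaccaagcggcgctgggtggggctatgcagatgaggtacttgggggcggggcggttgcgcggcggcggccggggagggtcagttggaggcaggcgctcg
Smox: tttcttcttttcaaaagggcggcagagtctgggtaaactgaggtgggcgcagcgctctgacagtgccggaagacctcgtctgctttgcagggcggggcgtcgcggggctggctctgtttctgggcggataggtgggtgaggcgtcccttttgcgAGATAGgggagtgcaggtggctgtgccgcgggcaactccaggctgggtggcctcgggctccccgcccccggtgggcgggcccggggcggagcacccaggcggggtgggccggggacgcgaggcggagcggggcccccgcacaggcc
The first base of the match lies 196 bases before the start in Sms, 127 in Oaz2 and 96 in Smox. A match is a description of the letters and shows no binding.

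The comparison of 200 nM with 0 nM asked how the pathway stood at the highest dose. Both aminopropyl transferase genes fell, Srm 4.12-fold and Sms 5.42-fold. Of the breakdown genes, Sat1 rose 3.95-fold and Smox went from 1 count to 101, and the antizyme gene Oaz2 rose 2.11-fold. The antizyme inhibitor gene Azin1 rose 1.27-fold and the hypusine enzyme gene Dhps fell 1.20-fold, while Odc1, the first enzyme of the pathway, was not called. Of the 8 tested genes 4 were higher and 3 lower at 200 nM, with Smox among the higher ones (edgeR quasi-likelihood test, Benjamini-Hochberg adjusted over 10080 genes). Over all genes tested 80.0% were called, 40.5% higher and 39.5% lower, so the number of calls is near that of genes at large. Smox passed the filter only through the doses where it is high and had to differ, and without it 3 genes were higher and 3 lower. Scaling by library size alone moved the median log2 fold change of all genes to -0.36 and the split of calls from 4086 higher and 3977 lower to 2819 and 5396. The median log2 fold change of the 8 genes was 0.11, also with Smox set at the lower bound of its counting interval, against 0.02 over all genes tested. In bulk RNA, fewer cells of a type and less RNA per cell cannot be told apart.

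**Figure D2:**
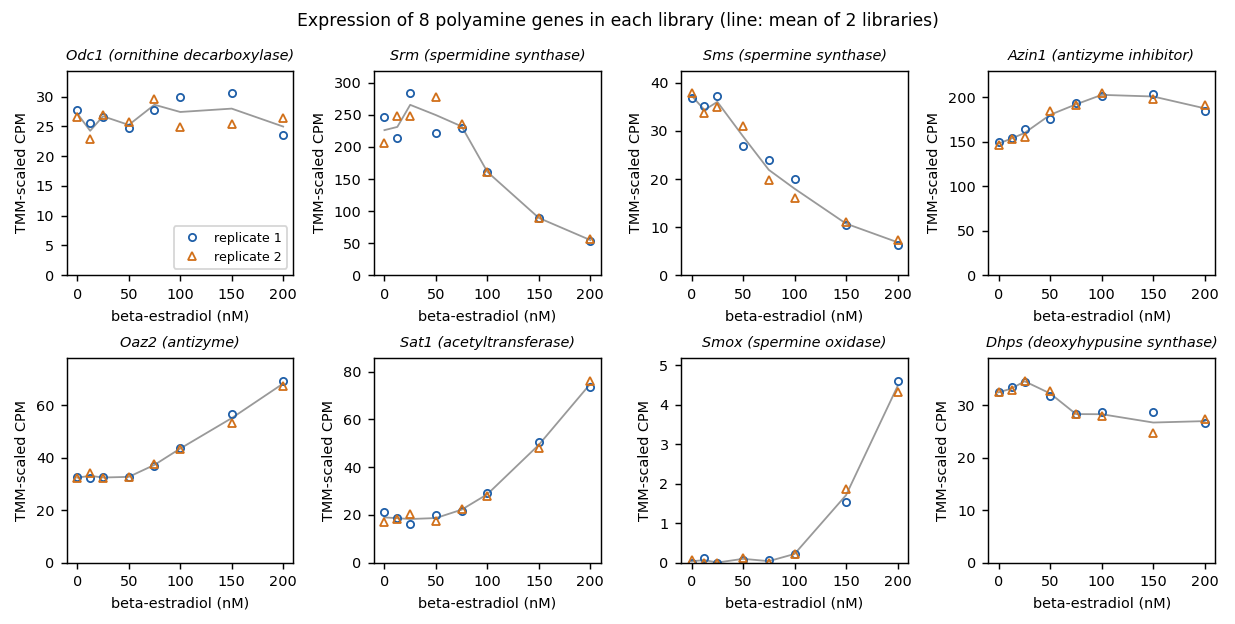
TMM-scaled CPM of the 8 tested genes in each library (circles, replicate 1; triangles, replicate 2; line, mean of 2 libraries) against the dose of beta-estradiol in nM. Srm and Sms end at 53.2 to 56.4 and 6.36 to 7.37 CPM, Sat1 and Oaz2 climb from 75 nM upward, Smox leaves the floor at 150 nM, and Odc1 stays between 22.9 and 30.5 CPM.

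Among the synthesis genes, Odc1 (chromosome 12, 17544794 to 17551505) encodes the enzyme that makes putrescine from ornithine. By dose, 0 nM gave 27.8 and 26.5 CPM, 12.5 nM gave 25.6 and 22.9, 25 nM gave 26.5 and 26.8, and 50 nM gave 24.7 and 25.7. Of the upper doses, 75 nM gave 27.7 and 29.6 CPM, 100 nM gave 29.9 and 24.9, 150 nM gave 30.5 and 25.4, and 200 nM gave 23.5 and 26.4. The 200 nM libraries lay below both 0 nM libraries, but by less than 1 CPM for the nearer pair. The log2 fold change at 200 nM was -0.12 ± 0.10 (standard error of the fit), with a 95% interval from -0.33 to 0.09 and an adjusted p of 0.282. Odc1 was not called at any of the 7 doses against 0 nM, nor by the test of any difference among the 8 doses (adjusted p = 0.205), which called 7 of the 8 genes and 86.3% of all genes. Without a correction for library makeup, scaling by library size alone, its change at 200 nM was -0.50 with an adjusted p of 3.07e-05.

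Srm, the spermidine synthase gene (chromosome 4, 148591503 to 148594993), was the most abundant of the 8 per length at 0 nM. By dose, 0 nM gave 247 and 206 CPM, 12.5 nM gave 214 and 249, 25 nM gave 284 and 248, and 50 nM gave 221 and 278. Then 75 nM gave 229 and 235 CPM, 100 nM gave 161 and 161, 150 nM gave 89.0 and 89.7, and 200 nM gave 53.2 and 56.4. The libraries from 0 to 75 nM overlapped, and all libraries from 100 nM upward lay below them. The log2 fold change against 0 nM was -0.49 ± 0.13 at 100 nM (adjusted p = 0.0103), -1.34 ± 0.15 at 150 nM (2.87e-05) and -2.04 ± 0.16 at 200 nM (1.69e-06). The call at 100 nM was lost without 0 nM replicate 1 (-0.36, adjusted p = 0.0679) and in a fit of those 2 doses alone (adjusted p = 0.0536).

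Sms, the spermine synthase gene (chromosome X, 157443855 to 157492287), moved at lower doses. By dose, 0 nM gave 36.8 and 37.8 CPM, 12.5 nM gave 35.1 and 33.6, 25 nM gave 37.2 and 34.9, and 50 nM gave 26.8 and 31.0. Of the upper doses, 75 nM gave 24.0 and 19.8 CPM, 100 nM gave 19.9 and 16.1, 150 nM gave 10.5 and 11.01, and 200 nM gave 6.36 and 7.37. From 50 nM upward every library lay below those of 0 to 25 nM. The log2 fold change against 0 nM was -0.37 ± 0.09 at 50 nM (adjusted p = 0.00166), -0.77 ± 0.10 at 75 nM, -1.05 ± 0.10 at 100 nM, -1.80 ± 0.12 at 150 nM and -2.44 ± 0.13 at 200 nM (1.84e-22). Without 50 nM replicate 1 the call at 50 nM was lost (-0.27, adjusted p = 0.0644).

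The control of ornithine decarboxylase is split between Oaz2, which lowers the enzyme, and Azin1, which protects it. Oaz2 (chromosome 9, 65668001 to 65690300) stood between 32.2 and 34.1 CPM in all 8 libraries from 0 to 50 nM. Then 75 nM gave 36.9 and 37.7 CPM, 100 nM gave 43.7 and 43.4, 150 nM gave 56.9 and 53.4, and 200 nM gave 69.5 and 67.3. From 75 nM upward each dose lay above all lower doses. The log2 fold change against 0 nM was 0.43 ± 0.07 at 100 nM (adjusted p = 2.59e-06), 0.77 ± 0.08 at 150 nM (7.81e-13) and 1.08 ± 0.07 at 200 nM (2.37e-18). At 75 nM it was 0.20 ± 0.08 (adjusted p = 0.0214), a call that was lost by DESeq2 (0.102), by library size alone (0.354), without the filter on low counts (0.0508) and without any single library of the 2 doses. The adjusted p-values were then 0.0781 and 0.0863 without 0 nM replicates 1 and 2, and 0.0572 and 0.118 without 75 nM replicates 1 and 2.

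Azin1 (chromosome 15, 38487427 to 38519266) encodes a relative of ornithine decarboxylase that binds antizyme. By dose, 0 nM gave 150 and 146 CPM, 12.5 nM gave 154 and 153, 25 nM gave 164 and 155, and 50 nM gave 176 and 184. Of the upper doses, 75 nM gave 193 and 191 CPM, 100 nM gave 201 and 204, 150 nM gave 203 and 198, and 200 nM gave 184 and 191. All libraries from 50 nM upward lay above all those from 0 to 25 nM, with the highest mean at 100 nM. Against 0 nM, log2 fold changes were 0.28 ± 0.04 at 50 nM (adjusted p = 3.1e-07), 0.45 ± 0.04 at 100 nM (3.1e-13) and 0.34 ± 0.04 at 200 nM (9.72e-10). Azin1 was higher at 100 nM than at 200 nM by 0.11 ± 0.04 in the direct comparison (adjusted p = 0.0204). It did not pass the test for a peak at 100 nM, which is adjusted over all genes for both ends at once (adjusted p = 0.27). With library size alone the change at 200 nM turned to -0.04 and was not called (adjusted p = 0.411), so the rise of Azin1 at 200 nM holds relative to the TMM scaling. Azin1 overlaps the gene model Gm49077 on the other strand over 358 bases, or 5.7% of its exons, whose reads cannot be told apart without strand.

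Of the breakdown genes, Sat1 (chromosome X, 155213132 to 155216449) encodes the acetyltransferase that marks spermidine and spermine for oxidation and export. Its level was 21.0 and 16.8 CPM at 0 nM and between 16.3 and 20.2 CPM in the 6 libraries from 12.5 to 50 nM. Then 75 nM gave 21.8 and 22.5 CPM, 100 nM gave 29.2 and 28.1, 150 nM gave 50.6 and 48.1, and 200 nM gave 73.6 and 76.2. Each dose from 75 nM lay above all lower doses. Against 0 nM, log2 fold changes were 0.60 ± 0.10 at 100 nM (adjusted p = 1.73e-06), 1.38 ± 0.10 at 150 nM (2.53e-17) and 1.98 ± 0.09 at 200 nM (3.12e-24). At 75 nM it was 0.23 ± 0.11 and not called (adjusted p = 0.0671), but was called without 0 nM replicate 1 (0.39, adjusted p = 0.0102).

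Smox (chromosome 2, 131491496 to 131525922) encodes spermine oxidase, which turns spermine back into spermidine. It had 0 and 1 count in the 0 nM libraries and 0 to 2 counts in each of the 8 libraries from 12.5 to 75 nM. Both 100 nM libraries had 3 counts, those of 150 nM had 20 and 16, and those of 200 nM had 50 and 51, or 4.61 and 4.32 CPM. Libraries at 150 and 200 nM lay above all others. The ratio of 200 nM to 0 nM was 143, with a 95% counting interval from 25.2 to 5720 that covers counting error only. Smox passed the filter on low counts only through its 2 highest doses, so it had to differ from 0 nM there, and its values are a description with no p.

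Dhps (chromosome 8, 85071757 to 85075162) encodes deoxyhypusine synthase, which spends spermidine on eIF5A. Its level was 32.4 and 32.5 CPM at 0 nM and between 31.7 and 34.7 CPM in the 6 libraries from 12.5 to 50 nM. Of the upper doses, 75 nM gave 28.2 and 28.3 CPM, 100 nM gave 28.6 and 27.9, 150 nM gave 28.8 and 24.6, and 200 nM gave 26.5 and 27.4. All libraries from 75 nM upward lay below all those from 0 to 50 nM. The log2 fold change was -0.20 ± 0.09 at 75 nM (adjusted p = 0.0442), -0.20 ± 0.09 at 100 nM (0.0368), -0.27 ± 0.09 at 150 nM (0.00684) and -0.27 ± 0.09 at 200 nM (0.00575).

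The smaller calls on Dhps depended on having both libraries of a dose, while the fold changes at 75 and 100 nM stayed near those given. At 75 nM, where the fold change was between -0.21 and -0.20 with any 1 of the 4 libraries left out, the adjusted p was 0.0751 by DESeq2, 0.0584 without the filter, 0.111 and 0.114 without 0 nM replicates 1 and 2, and 0.131 and 0.105 without 75 nM replicates 1 and 2. At 100 nM, with fold changes from -0.22 to -0.18, it was 0.079 by DESeq2, 0.0906 and 0.0933 without 0 nM replicates 1 and 2, and 0.073 and 0.136 without 100 nM replicates 1 and 2. At 150 nM the fold change ran from -0.40 to -0.18 with 1 library left out. The call was lost without replicate 2 of that dose, where it was -0.18. Dhps overlaps the gene Wdr83 on the other strand over 128 bases of its exons, or 5.5%, and the library method keeps no strand. Wdr83 went from 29.8 ± 2.4 to 53.8 ± 6.7 CPM (SD, n = 2), the opposite direction.

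**Figure D3:**
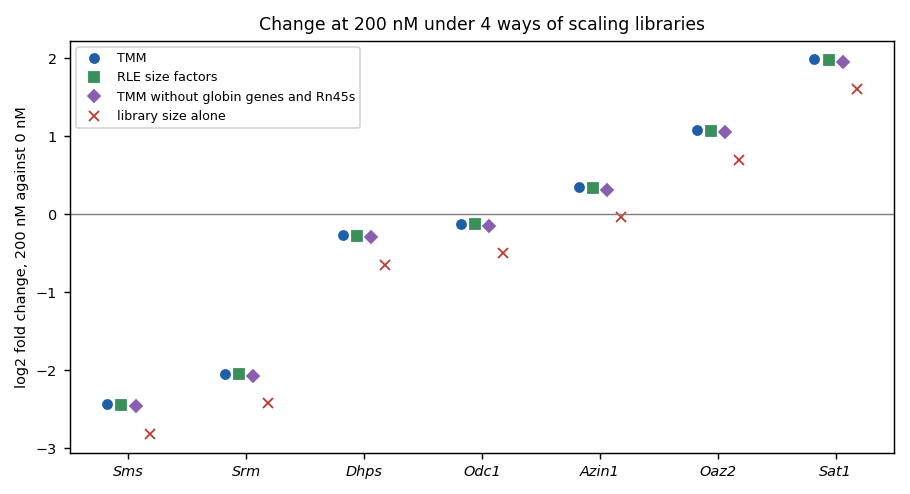
Log2 fold change at 200 nM against 0 nM for 7 genes (Smox, with 1 count at 0 nM, left out) under 4 ways of scaling libraries: TMM, RLE size factors, TMM without globin genes and Rn45s, and library size alone. The first 3 nearly coincide, while library size alone lowers every gene, moves Azin1 from 0.34 to -0.04 and Odc1 from -0.12 to -0.50.

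The dose at which a gene was first called depends on its counts and error as well as on its change. At 12.5 nM 0 of the 8 genes were called by edgeR or by DESeq2, with 0 at an unadjusted p under 0.05, and 0.506% of all genes were called (0.278% higher, 0.228% lower). At 25 nM 0 were called by either tool, with 1 (Azin1) at an unadjusted p under 0.05, against 4.02% of all genes (302 genes higher, and 103 or 1.02% lower). At 50 nM Azin1 was higher and Sms lower, against 33.5% of all genes called (18.8% higher, 14.7% lower). At 75 nM Oaz2 and Dhps joined them, making 2 higher and 2 lower, against 56.0% (29.0% higher, 26.9% lower). At 100 nM Sat1 and Srm joined, making 3 higher and 3 lower, against 66.6% (34.1% higher, 32.5% lower). At 150 nM 3 were again higher and 3 lower, or 4 higher with Smox, against 74.3% (37.7% higher, 36.6% lower). The calls at 75 nM on Oaz2 and Dhps were lost under other settings, with 1 gene higher and 1 lower by DESeq2. Also lost under another setting or with a library left out were Sms at 50 nM, Srm and Dhps at 100 nM and Dhps at 150 nM. At 100 nM DESeq2 called 5 of the 8 genes.

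Half-maximal doses, where mean log2 CPM was halfway between 0 and 200 nM, were read for the 5 genes changed at least 2-fold. They were 110.8 nM for Sms, 116.6 nM for Oaz2, 124.2 nM for Sat1, 127.3 nM for Smox and 128.5 nM for Srm. Taking 1 of the 2 libraries at each dose in every combination gave 95.3 to 121.9 nM for Sms, 112.2 to 121.9 nM for Oaz2, 117 to 130.4 nM for Sat1, 122.9 to 132.2 nM for Smox and 123.3 to 133.4 nM for Srm. The ranges of neighbours in this order overlap, those of Sms and Srm do not. A prior count of 0.5 in place of 2 moved Smox to 117.3 nM.

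Between neighbouring doses, which lie 12.5 to 50 nM apart, the number of genes called was highest in the top 2 steps, each 50 nM wide. Odc1, Azin1 and Dhps were not called in either. From 100 to 150 nM Srm (-0.85 ± 0.15) and Sms (-0.75 ± 0.13) fell, and Oaz2 (0.35 ± 0.07) and Sat1 (0.79 ± 0.10) rose, against 40.9% of all genes called (20.6% higher, 20.2% lower). From 150 to 200 nM the same 4 genes were called in the same directions, against 39.3% (19.4% higher, 19.9% lower), with Sat1 at 0.60 ± 0.09 and Sms at -0.63 ± 0.165. The fall of Srm in that last step (-0.70 ± 0.18, adjusted p = 0.0135) was lost when any 1 of its 4 libraries was left out, with adjusted p-values of 0.0632 and 0.0501 without 150 nM replicates 1 and 2 and of 0.0705 and 0.051 without 200 nM replicates 1 and 2. From 12.5 to 25 nM 0 of 8 were called by edgeR or DESeq2, with 0 at an unadjusted p under 0.05 and 1.09% of all genes called (0.893% higher, 0.198% lower).

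Calls in the middle steps were lost when a library was left out. From 25 to 50 nM, with 26.2% of all genes called (14.1% higher, 12.1% lower), Azin1 rose (0.17 ± 0.04), not called without 25 nM replicate 2 (adjusted p = 0.0654). Sms fell in that step (-0.32 ± 0.10), not called without 25 nM replicate 1 (0.0982) or 50 nM replicate 1 (0.156). From 50 to 75 nM, with 32.3% called (16.6% higher, 15.8% lower), Sms alone was called (-0.40 ± 0.10), and was not without 50 nM replicate 2 (0.0702) or 75 nM replicate 2 (0.0958). From 75 to 100 nM, with 27.5% called (14.7% higher, 12.8% lower), Sat1 rose by 0.37 ± 0.10, Oaz2 by 0.22 ± 0.07, and Srm changed by -0.53 ± 0.13. The call on Sat1 was lost without 75 nM replicate 1 (0.0512) or 100 nM replicate 1 (0.0528). Those on Oaz2 and Srm were lost when any 1 of the 4 libraries was left out, although the fold changes stayed at 0.21 to 0.24 and -0.55 to -0.51, with adjusted p-values for Oaz2 of 0.12 and 0.0643 without 75 nM replicates 1 and 2 and of 0.0935 and 0.0789 without 100 nM replicates 1 and 2. For Srm they were 0.0688 and 0.085 without 75 nM replicates 1 and 2 and 0.0864 and 0.0866 without 100 nM replicates 1 and 2. Sms in the same step (-0.28 ± 0.11, adjusted p = 0.0528) was called without 100 nM replicate 1 (0.0162) or 75 nM replicate 2 (0.019), and without either library of 50 nM (0.0456 and 0.0459) or of 200 nM (0.0497 and 0.0493). Sat1 from 50 to 75 nM was called without 50 nM replicate 1 (0.36, adjusted p = 0.0355), and Azin1 from 150 to 200 nM was lower by the test without 50 nM replicate 1 or 2 (-0.10, adjusted p = 0.0459 and 0.0458). No gene of the 8 passed the test for a peak or a dip at an intermediate dose by edgeR or DESeq2, with 1 (Azin1) and 0 at an unadjusted p under 0.05, against 2.90% and 2.05% of all genes.

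Levels were compared between genes per kilobase of summed exons. At 0 nM the order was Srm at 142 ± 18 CPM per kilobase (SD, n = 2), Azin1 at 23.6 ± 0.5, Dhps at 14.0 ± 0.01, Oaz2 at 10.8 ± 0.04, Odc1 at 7.97 ± 0.26, Sat1 at 6.82 ± 1.07, Sms at 6.21 ± 0.12 and Smox at 0.00809 ± 0.0114. Sat1 did not differ beyond the spread from either of its neighbours in this order, Odc1 and Sms. At 200 nM it was Srm at 34.3 ± 1.4, Azin1 at 29.9 ± 0.8, Sat1 at 27.0 ± 0.7, Oaz2 at 22.9 ± 0.5, Dhps at 11.6 ± 0.3, Odc1 at 7.33 ± 0.61, Smox at 1.15 ± 0.05 and Sms at 1.14 ± 0.12. Smox and Sms did not differ beyond their spread at that dose. With the longest coding transcript as the length, Sat1 came first at 200 nM, at 64.5 ± 1.6 against 41.0 ± 1.7 for Srm. At 0 nM Sat1 then stood above Odc1, at 16.3 ± 2.55 against 12.3 ± 0.396, so the order depends on the length used.

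Ratios of 2 genes within a library do not depend on how libraries are scaled, but their level depends on the gene lengths used. The log2 ratio of Odc1 to Sat1, the first enzyme of synthesis to the first of breakdown, began at 0.11 and 0.36 without hormone. At 75 nM it stood at 0.05 and 0.10, and 100 nM gave -0.26 and -0.47, 150 nM gave -1.02 and -1.22, and 200 nM gave -1.94 and -1.82. With the longest coding transcript as the length the ratio began at -0.52 and -0.27 and ended at -2.57 and -2.45, so its sign at 0 nM has no meaning of its own, while its course over the doses is the same. From 100 nM upward every library lay below all those of lower doses. The ratio of Odc1 to its inhibitor Oaz2 went from -0.41 and -0.47 at 0 nM to -1.75 and -1.54 at 200 nM, a pair chosen because Oaz1, the antizyme first planned for it, had nearly no counts.

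The ratio of Odc1 to Azin1 was -1.55 and -1.58 at 0 nM and -2.09 and -1.97 at 200 nM, again without overlap. That of Srm to Sms began at 4.65 and 4.35, was highest on average at 75 nM with 5.17 and 5.48, and ended at 4.98 and 4.85. The 75 nM libraries overlapped those of 100 nM, which had 4.93 and 5.23. With 2 libraries a dose an exact two-sided permutation test cannot give a p under 0.333 for 1 ratio between 2 doses, and none is given.

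**Figure D4:**
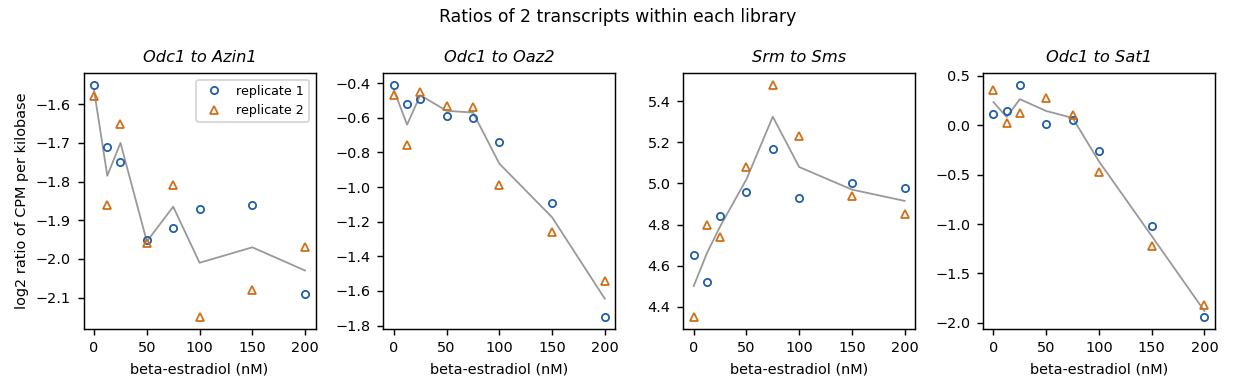
Log2 ratio of CPM per kilobase of 2 genes in the same library (circles, replicate 1; triangles, replicate 2; line, mean of 2 libraries) against the dose of beta-estradiol in nM; the vertical scale differs between panels. Odc1 to Sat1 and Odc1 to Oaz2 drop from 100 nM upward, to about -1.88 and -1.64 on average at 200 nM, while the mean of Srm to Sms is highest at 75 nM at 5.32.

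A list of 28 further genes of the pathway covered the supply of ornithine, methionine and S-adenosylmethionine, hypusine, transport, and control by MYC. Of these 18 passed the filter. At 200 nM 4 were higher, 12 lower and 2 not called, against 40.5% of all genes higher and 39.5% lower, and the median log2 fold change was -1.02 against 0.02 over all genes. The others had few or no counts: Amd2, Azin2, Mtap and Slc18b1 had 0 in every library. The sources used here do not give the annotation, so these rows of 0 do not show that the genes are silent.

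The genes that recycle the methylthio group left over by both synthases did not move together: of the 5 tested, Adi1, Enoph1, Got1 and Mri1 fell and Apip rose, and Mtap had no counts. Adi1 changed by -2.34 ± 0.06 (168 and 175 CPM at 0 nM, 34.4 and 33.2 at 200 nM) and Enoph1 by -2.25 ± 0.07 (128 and 124 CPM, then 27.8 and 25.2). Got1, a transaminase, was at -1.68 ± 0.08. Mri1 and Apip were named after their values were seen: Mri1 was at -0.36 ± 0.09 (adjusted p = 0.000228) and Apip at 0.30 ± 0.07 (8.25e-05), which with library size alone turned to -0.08 and was not called. In the supply of S-adenosylmethionine, the synthetase gene Mat2a went from 700 and 711 CPM to 271 and 269 CPM, a change of -1.39 ± 0.03. Ahcy, which clears its demethylated product, was at -1.37 ± 0.10. Mat2b, also listed for this supply and named after its values were seen, rose by 0.47 ± 0.04 (edgeR quasi-likelihood, adjusted p = 5.81e-14). With library size alone the change of Mat2b was 0.09.

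Slc7a1, an importer of arginine, was at -1.30 ± 0.06, and Atp13a3, a polyamine transporter of the P5B ATPase family, at -1.61 ± 0.10. Its relative Atp13a2, which exports polyamines from lysosomes, moved the other way, at 0.98 ± 0.14. Paox, which oxidises the acetylated polyamines made by Sat1, fell from 7.36 and 7.63 CPM to 2.40 and 2.54 CPM, by 1.60 ± 0.22 on the log2 scale. Among the breakdown genes, Sat1 rose and Paox fell.

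Eif5a, the target of hypusination, fell from 2214 and 2230 CPM to 1332 and 1335 CPM, by 0.74 ± 0.03. Dohh, the enzyme of the second step of hypusine synthesis, was at 210 and 213 CPM and then 217 and 217 CPM and was not called (0.04 ± 0.04, adjusted p = 0.377), and with library size alone it turned to -0.34 and was called lower. Myc, a known activator of Odc1 and Srm transcription, was at -2.06 ± 0.04, and Mxi1, a partner of MAX that opposes MYC, at 1.88 ± 0.14. All changes named for this list were called unless said otherwise, with adjusted p-values from 8.46e-40 (Myc) to 0.000228 (Mri1).

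**Figure D5:**
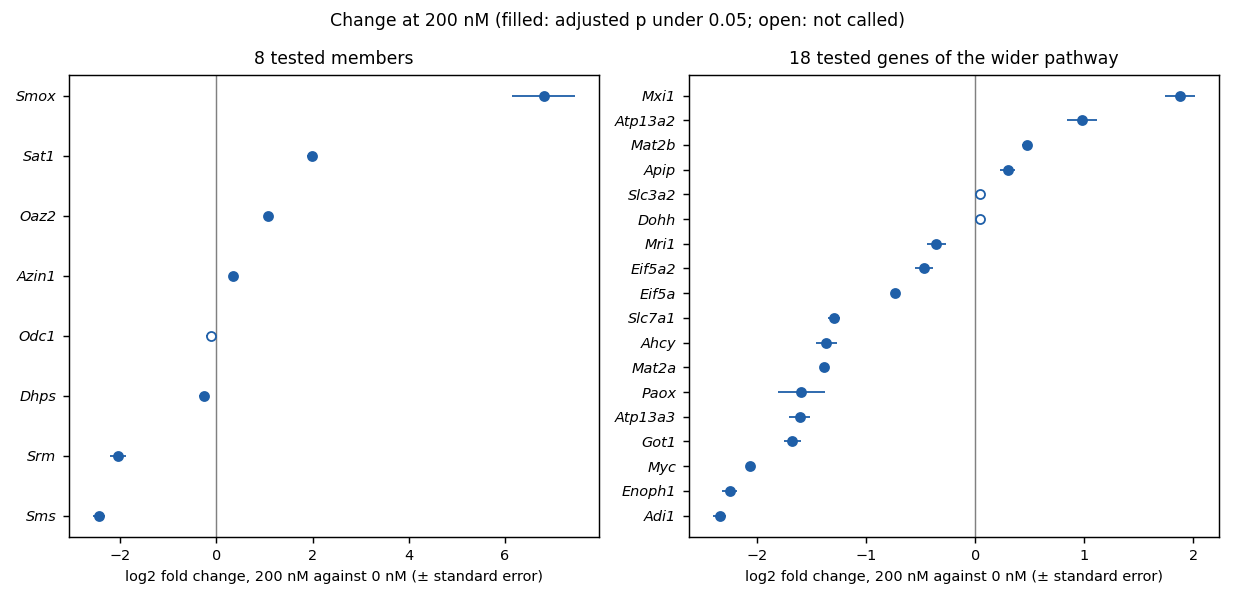
Log2 fold change at 200 nM against 0 nM with its standard error for the 8 tested genes (left) and 18 tested genes of the wider pathway (right), filled where the adjusted p is under 0.05. Both ends of the left panel are held by Smox and Sms, at 6.81 and -2.44, and 12 of the 18 genes on the right lie below 0 and are called; the size for Smox depends on 1 count at 0 nM.

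Among the genes whose mean log2 CPM over the 8 doses was most like that of Sat1, out of 5956 others with at least 20 CPM, were Ube2b (a ubiquitin-conjugating enzyme) and Lpin1 (a phosphatidate phosphatase), each with a Pearson r of 0.999. For Odc1 they were Ovca2 (0.87), Ankle1 (0.82) and Isoc1 (0.82), all 3 within -0.19 to -0.08 on the log2 scale at 200 nM. These are descriptions over 8 means that share libraries, and carry no test.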

How the data were processed

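The deposited values are the authors' counts of reads for each gene symbol in 16 libraries, whole numbers that differ in total, so they were taken as counts without normalisation. Per the labels' protocols, libraries were made by Smart-seq2 from cells lysed in RLT buffer. This method uses no molecular identifiers and keeps no strand. The counting intervals of Smox and Sat2 cover counting error only, while the interval given for Odc1 comes from the fit and also holds the spread between libraries. The submitters' processing notes name mm10, STAR and bcl2fastq. The sources used here do not give versions, the counting program or the annotation. In R 4.3.3, edgeR 4.0.16 kept 10080 genes (filterByExpr by dose), scaled libraries by TMM and fitted a robust quasi-likelihood model with dose as a factor to all 16 libraries. P-values were adjusted by Benjamini-Hochberg over all genes within a contrast and called under 0.05. Standard errors are the log2 fold change divided by the square root of F. CPM use TMM-scaled library totals. DESeq2 1.42.0, other scalings, no filter, a replicate block, fits of 2 doses and leaving out each library were alternatives. The test was tried on simulated counts. Positions, lengths and transcripts came from GENCODE M21 (GRCm38) and promoter windows from RefSeq (GRCm38.p6). Named genes were the 10 members, listed pathway genes called and changed at least 1.5-fold with 6 fixed ones, and 3 most alike to Odc1 and Sat1; some results under this rule and the marker lists are not reported here. Members and lists were chosen with earlier results of these data known.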

Additional observations from a re-analysis of the deposited data

How the results depend on the processing

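At 200 nM against 0 nM the 3 lower members and the 3 higher ones other than Smox kept their calls under every alternative run other than library size alone. With library size alone Azin1 turned from 0.34 to -0.039 and was not called, while Odc1 was then called lower. Smox had to differ from 0 nM at that dose, so its call under the alternatives carries no weight. Library size alone also turned Dohh from 0.04 to -0.341, Slc3a2 from 0.04 to -0.337 and Apip from 0.30 to -0.084, so small changes are relative to TMM. It gave 1 member higher at 75 nM against 0 nM, 2 lower from 50 to 75 nM, 1 higher and 2 lower from 75 to 100 nM, 4 lower from 150 to 200 nM and 1 with a peak. DESeq2 and the fit without a filter each gave 1 higher and 1 lower at 75 nM, and the latter 2 lower from 75 to 100 nM. Leaving out each library gave 0 to 1 lower at 50 nM, 1 to 2 higher and 1 to 2 lower at 75 nM and 1 to 3 lower at 100 nM, each against 0 nM. For the steps it gave 0 to 1 higher and 0 to 1 lower from 25 to 50 nM, 0 to 1 higher and 0 to 1 lower from 50 to 75 nM, 0 to 2 higher and 0 to 2 lower from 75 to 100 nM, and 1 to 3 lower from 150 to 200 nM. Same-numbered libraries showed no consistent shared deviation: their deviations correlated at -0.274 to 0.211 over 28 pairs of doses, 3 of them over 0.1. Such values cannot show how the replicates were made. With the replicate block Odc1 stayed uncalled (-0.12, adjusted p = 0.292) and no call on a member changed. Over all genes, the counts at 12.5 nM were 28 higher and 23 lower, and 16 and 10 or 8 and 9 without 0 nM replicate 1 or 2, and 18 and 11 or 10 and 9 without 12.5 nM replicate 1 or 2. At 25 nM they were 302 and 103, but 182 and 44 or 150 and 39 without 0 nM replicate 1 or 2, 194 and 39 without 25 nM replicate 2 and 67 lower without 25 nM replicate 1, and 174 and 225 with library size alone; DESeq2 gave 12 lower at 12.5 nM and 49 at 25 nM, and the fit of 2 doses 47 lower at 12.5 nM. Library size alone gave 2330 lower at 50 nM (1481 with TMM), 979 higher and 2118 lower from 75 to 100 nM (1480 and 1293), and 1168 higher and 3088 lower from 150 to 200 nM (1956 and 2010). From 12.5 to 25 nM, 90 higher and 20 lower became 56 higher with library size alone, 153 and 40 without a filter, 10 lower by DESeq2, 46 and 4 without 12.5 nM replicate 1, 32 lower without 12.5 nM replicate 2 and 3 lower without 25 nM replicate 2. Causes were not tested. Low counts limit what can be said of Smox, Oaz1 and Amd1. Odc1, Sms, Amd1 and Oaz1 share sequence with other genes, and the part of this in their values was not tested.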

Other observations

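Of the 18 tested genes of the wider list, 2 moved one way and back, against 2.90% of all genes with a peak and 2.05% with a dip. Eif5a2, the second eIF5A gene, went from 60.8 ± 1.5 CPM at 0 nM to 94.2 ± 10.3 CPM at 50 nM and 43.9 ± 6.8 CPM at 200 nM (SD, n = 2), higher at 50 nM than at both ends (adjusted p = 3.16e-07, edgeR quasi-likelihood), and also at 75 and 100 nM. It was called in 22 of 22 alternative fits. Slc3a2, the heavy chain shared by several amino acid transporters, dipped from 345 ± 2 CPM to 291 ± 3 CPM at 75 nM and stood at 356 ± 4 CPM at 200 nM (adjusted p = 8.92e-07), in 21 of 22 fits but not with library size alone. Both were singled out after their values were seen. Sat2, a relative of Sat1 that did not pass the filter, had 1 count at 0 nM and 20 at 200 nM. Their ratio was 28.4 (95% counting interval 4.54 to 1180).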
